A study of Homo sapiens with 9 samples.

Results

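The library labelled SK-GT-4 is 1 of 9 RNA-seq libraries, each from a different human oesophageal adenocarcinoma cell line, and it was set against the other 8 over all genes of the deposited count table. Of 52158 named genes, 19719 reached 1 CPM in at least 1 library and were compared. CPM, the scale of all levels unless FPKM is named, relates a gene's count to the library's counts in the table after TMM scaling, a correction for unequal library composition. The rest are labelled ESO-26, ESO-51, FLO-1, JH_EsoAd1, OACP4_C, OAC_5.1_C, OE19 and OE33. All lines were grown untreated under standard culture conditions, and the labels give gastric cardia adenocarcinoma as the source of each. The design text mentions 3 technical replicates per line, yet each line has 1 column of counts, and the labels do not say how they were merged. With 1 library per line, no difference below has a replicate check and no test was possible. A cell line is a single long-cultured tumour population, so a value describes that culture and not the tumour type.

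Adenocarcinoma of the lower oesophagus usually arises beside Barrett's metaplasia, in which the squamous lining is replaced by columnar epithelium. Columnar cells of this kind can carry gastric features, such as the trefoil peptide TFF1, the mucin MUC5AC and the aspartic protease cathepsin E, together with intestinal ones, such as villin and the cadherin CDH17. Amplification of the receptor tyrosine kinase gene ERBB2 (HER2) is a recurrent event in this cancer and the basis of an approved antibody treatment.

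Epithelial marker genes were present in the library labelled SK-GT-4, with a summed level of 5180 CPM over 7 genes, against 162.9 to 14504 CPM in the other libraries. The markers chosen for other cell types were low. The summed levels were 3.83 CPM for 14 haematopoietic genes, 11.03 CPM for the 8 endothelial genes in the table and 29.2 CPM for 10 fibroblast and smooth muscle genes. For 7 oesophageal squamous genes the sum was 9.93 CPM. A wider list of squamous and basal genes was mixed and summed to 641 CPM, within the 169.8 to 1833 CPM of the other libraries. Of its 26 members compared, 9 were at least 1 log2 unit above the median of the other libraries and 3 as far below. The keratin gene KRT6B was its 1 member called higher by the rule given below. The table held 31186139 counts for SK-GT-4, between 16801179 (ESO-26) and 69881539 (FLO-1) elsewhere, and 14465 genes reached 1 CPM, within the 13687 to 15236 of the other libraries. Mitochondrial genes took 2.67% of its counts, whereas they took 24.7% in JH_EsoAd1. OE19 is known from the literature as a line with amplified ERBB2, but the library labelled OE19 held 184.9 CPM of ERBB2 and ranked below 5 others, whereas the library labelled SK-GT-4 held the most. Whether these labels were exchanged cannot be told from these files. Names are therefore used as labels throughout, and none was reassigned. In bulk RNA, fewer cells of a type and less RNA per cell cannot be told apart. Poisson intervals and floors quoted below cover counting error only.

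Across 17129 genes, the level in SK-GT-4 followed that in ESO-51 most closely (Pearson r 0.852, Spearman rho 0.847), and that in ESO-26 least (r 0.740, rho 0.730). OE19 (r 0.824) and OACP4_C (r 0.822) came next after ESO-51. These coefficients are across genes, which are not independent replicates, and all libraries share the same gene set and differ in depth. For the 131 genes described next as higher, ESO-51 was the library nearest to SK-GT-4 for 32, more than any other. For the 56 lower genes, ESO-26 was nearest for 13 and ESO-51 for 8. How often each library is nearest over all genes was not counted, so these numbers do not measure closeness.

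A gene was called higher when SK-GT-4 exceeded the next library by a gap of 2 or more in log2(CPM + 1) and held 5 CPM or more. It was called lower when every other library exceeded SK-GT-4 by such a gap and held 5 CPM or more. By this rule 131 genes were higher (0.664% of those compared) and 56 were lower (0.284%). The other libraries, each called against its own other 8, had 37 to 181 higher and 10 to 175 lower genes, so the numbers in SK-GT-4 lie inside that range. Of all calls, 70.1% were higher in SK-GT-4 on the CPM scale, but 95.2% on the deposited FPKM scale. Protein-coding genes made up 113 of the higher and 55 of the lower genes, and 43 of the higher genes stayed under 1 CPM in every other library. In the looser comparison with the median of the other 8, 2443 genes (12.4%) were at least 1 log2 unit above it and 1769 (8.97%) at least 1 below it.

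**Figure D1:**
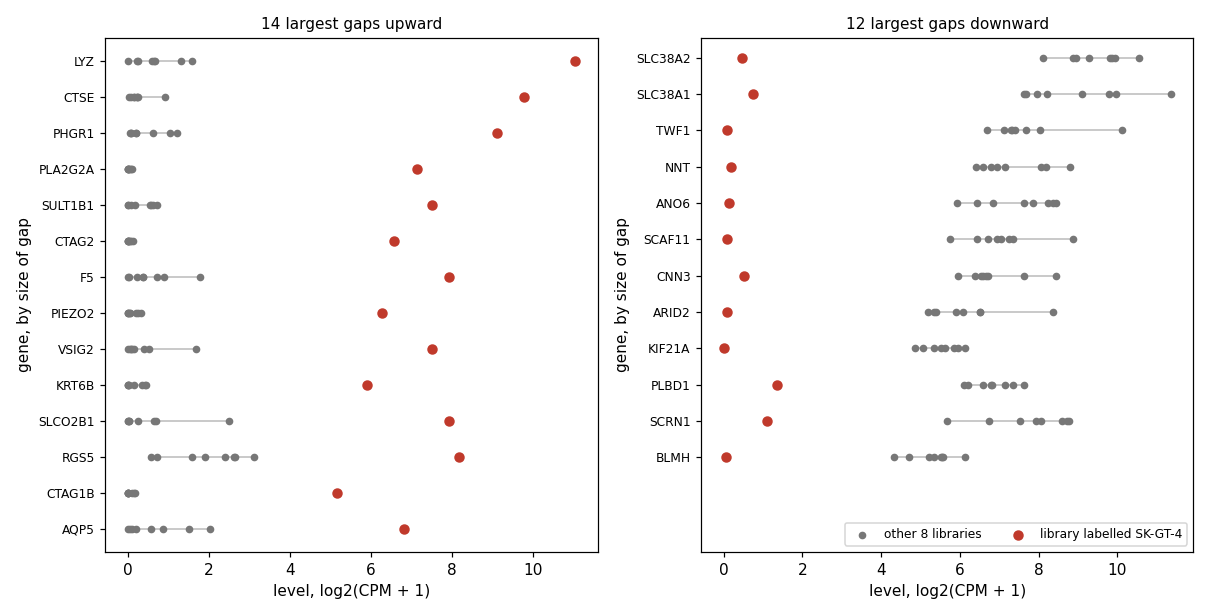
Level, as log2(CPM + 1), of the 14 protein-coding genes with the widest gap above the other libraries and the 12 with the widest gap below them, with SK-GT-4 in red, each of the other 8 in grey and a line over their range. By the call rule no red point touches a grey line, and LYZ at 2089.9 CPM and SLC38A2 at 0.386 CPM stand at the ends.

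The widest gap belonged to LYZ, the secreted lysozyme that cuts bacterial cell walls, at 2089.9 CPM (95% interval 2074 to 2106) against a median of 0.535 CPM and a highest of 1.98 CPM (ESO-51) in the other libraries. CTSE, the gastric cathepsin E, was 869 CPM against at most 0.885 CPM. The small peptide gene PHGR1 was 547 CPM against at most 1.32 CPM. By the call rule, the SK-GT-4 level has no overlap with the other libraries in any of these cases. SULT1B1, a sulphotransferase of thyroid hormones and phenols, was 180.9 CPM against at most 0.645 CPM. PLA2G2A, a secreted phospholipase with antibacterial activity, was 138.9 CPM against at most 2 counts in any other library. F5, coagulation factor V, was 239 CPM against at most 2.41 CPM. None of these 3 genes reached 3 CPM in another library. Further genes with gaps over 4 log2 units were PIEZO2, a mechanically gated ion channel (75.7 CPM), the keratin KRT6B (58.9 CPM), the anion transporter SLCO2B1 (241.9 CPM) and the G-protein regulator RGS5 (287 CPM). The gap was at least 4 log2 units for 27 higher and 14 lower genes.

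The FPKM scale divides by gene length and so allows levels of different genes to be compared. Mitochondrial genes, and identifiers not matched to a named gene, were left out of the FPKM ranks. Among the rest, the highest protein-coding gene of SK-GT-4 was the ferritin light chain FTL at 1976 FPKM. AGR2, a disulphide isomerase needed for mucin folding, was 685 FPKM, ERBB2 518 FPKM and LYZ 505 FPKM, while the actin-binding peptide gene TMSB10, the calcium-binding gene S100A6 and the junction gene JUP were 889, 596 and 562 FPKM. TFF1 stood at 388 FPKM, PHGR1 at 351 FPKM, AKR1B10 at 281 FPKM and ALDH3A1 at 214.8 FPKM. LYZ and PHGR1, which no other library held at 2 CPM or more, thus stood at 21 and 31 among the genes ranked. The 10 highest FPKM values among the genes ranked belonged to noncoding RNAs.

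Promoters of some called genes, not all at the ends of the gap order, are shown so that their composition can be seen beside the levels. They were picked and are no sample of the called genes. RefSeq sequences (GRCh38.p14, 250 bases before the start, printed 5′ to 3′ on the gene's strand) matched 83 of the 131 higher and 50 of the 56 lower genes. LYZ, PHGR1, TFF1 and AKR1B10 have no entry in the table used. The build named in the submitters' processing notes for the counts is GRCh37, so these coordinates are not those of the count files. Capitals mark matches on either strand to any of 5 motifs. These were GATAAG for the GATA factors, TGTTTAC for forkhead factors, CAAAGTCCA for the nuclear receptor HNF4, TATAAA for the core promoter box of that name, and GGGCGG for the GC box. The first 3 promoters belong to higher genes and lie on the minus strand at chr1:206023896-206024145 (CTSE), chr4:69760621-69760870 (SULT1B1) and chr1:119811461-119811710 (REG4, a secreted lectin of the regenerating family). The last, also on the minus strand at chr12:46372774-46373023, belongs to SLC38A2, a glutamine transporter and the gene with the widest gap downward.
CTSE: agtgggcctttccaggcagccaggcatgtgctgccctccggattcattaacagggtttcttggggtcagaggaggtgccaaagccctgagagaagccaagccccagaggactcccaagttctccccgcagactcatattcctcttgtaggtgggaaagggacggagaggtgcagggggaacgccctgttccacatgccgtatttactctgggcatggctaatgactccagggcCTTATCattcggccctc
SULT1B1: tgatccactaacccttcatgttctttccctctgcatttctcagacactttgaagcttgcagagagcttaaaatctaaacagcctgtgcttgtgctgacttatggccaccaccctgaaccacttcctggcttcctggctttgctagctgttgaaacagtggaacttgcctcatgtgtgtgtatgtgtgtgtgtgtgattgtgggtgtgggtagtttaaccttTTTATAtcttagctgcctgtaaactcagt
REG4: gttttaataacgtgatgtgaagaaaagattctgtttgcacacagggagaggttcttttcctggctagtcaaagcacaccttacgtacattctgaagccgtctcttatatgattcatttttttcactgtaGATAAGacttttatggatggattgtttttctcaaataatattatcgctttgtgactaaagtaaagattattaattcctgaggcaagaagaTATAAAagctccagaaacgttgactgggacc
SLC38A2: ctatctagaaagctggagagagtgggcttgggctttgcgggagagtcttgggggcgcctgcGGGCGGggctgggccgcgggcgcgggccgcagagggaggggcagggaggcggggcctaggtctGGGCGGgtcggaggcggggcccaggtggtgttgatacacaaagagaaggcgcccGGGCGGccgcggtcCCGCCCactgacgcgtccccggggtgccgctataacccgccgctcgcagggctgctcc

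The CTSE window holds a GATA match 17 bases before the start and 6 CpG dinucleotides. In the REG4 window a GATA match lies 121 bases and a TATA match 31 bases before the start, and SULT1B1 has a TATA match at 29 bases and no CpG. The SLC38A2 window instead holds 4 GC box matches and 26 CpGs. Windows not printed varied. Among higher genes, those of PLA2G2A, F5, AGR2 and SPDEF held 0 matches and 3 to 6 CpGs. That of PIEZO2 held 1 GC box match and 29 CpGs. Among lower genes, TWF1 had 5 matches, all GC boxes, and 31 CpGs, whereas SLC38A1 had a TATA match, a GC box match and 5 CpGs. A GATA match occurred in 11 of 83 higher genes (13.3%), in 0 of 50 lower genes, in 3.87% of 11726 protein-coding genes compared and in 5.65% of all 27305 promoters in the table. TATA matches occurred in 16.9% of higher and 10% of lower genes, against 6.35% of the protein-coding genes compared. GC boxes were present in 38.6% of higher genes, 70.0% of lower genes and 64.7% of the protein-coding genes compared. FOX matches were found in 4.82% of higher and 6.0% of lower genes (1.88% of those compared), and HNF4 matches in 2.41% of higher genes and no lower gene (0.256%). The median number of CpGs per window was 8 in higher genes, 22.5 in lower genes and 20 in those compared. By the call rule, lower genes held 5 CPM or more in every other library, whereas higher genes needed it only in SK-GT-4. The sets thus differ in how widely their genes are expressed, and the part of this in the shares above was not tested. Motifs can overlap one another, and a match describes the letters and not a bound site.

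Genes of the gastric surface and of mucous cells formed the list with the highest median. Of 19 members compared, 15 were at least 1 log2 unit above the median of the other libraries, 0 were as far below, and 9 were called higher. The list median was 5.05, against 0 over all genes compared and -0.40 to 0.82 for the same list in each other library. It ran from 2.62 to 6.11 over the alternative settings, lowest with FPKM rescaled to equal sums. Besides LYZ and CTSE, the called members included TFF1, VSIG2, AQP5, CAPN8, CAPN9 and CLDN18. TFF1, a trefoil peptide that binds mucus, was 341 CPM, while the other libraries ranged from 0 counts to 21.4 CPM (FLO-1) with a median of 0.212 CPM. VSIG2, a membrane protein of the stomach lining, was 180.3 CPM against at most 2.23 CPM. The water channel AQP5 was 110.4 CPM against at most 3.07 CPM. All 3 lay above every other library, which the call rule requires. The calpains CAPN8 and CAPN9, proteases of gastric surface cells, were 168.9 and 36.5 CPM, and the tight junction protein CLDN18 was 18.97 CPM against at most 1.36 CPM.

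Other gastric genes were less clear-cut, and some were higher in OE19 or near 0. ANXA10, an annexin of the gastric lining, was 334 CPM against 149 CPM in OE19 and 42.7 CPM in OACP4_C, with the other 6 at or under 2.85 CPM. MUC5AC, the main surface mucin of the stomach, was 278 CPM but reached 1542 CPM in OE19. TFF2, the trefoil peptide of mucous neck cells, was 15.6 CPM against 127.7 CPM in OE19. Thus OE19 exceeded SK-GT-4 for both MUC5AC and TFF2. The gastrokine genes GKN1 and GKN2 had 1 and 2 counts. Among chief, parietal and endocrine cell genes, 3 of 9 compared were above and 0 below, with a median of 0.71. PGC, pepsinogen C of chief cells, was called, at 27.2 CPM against at most 0.253 CPM, and KCNQ1, a potassium channel used in acid secretion, was 60.5 CPM against at most 29.5 CPM.

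**Figure D2:**
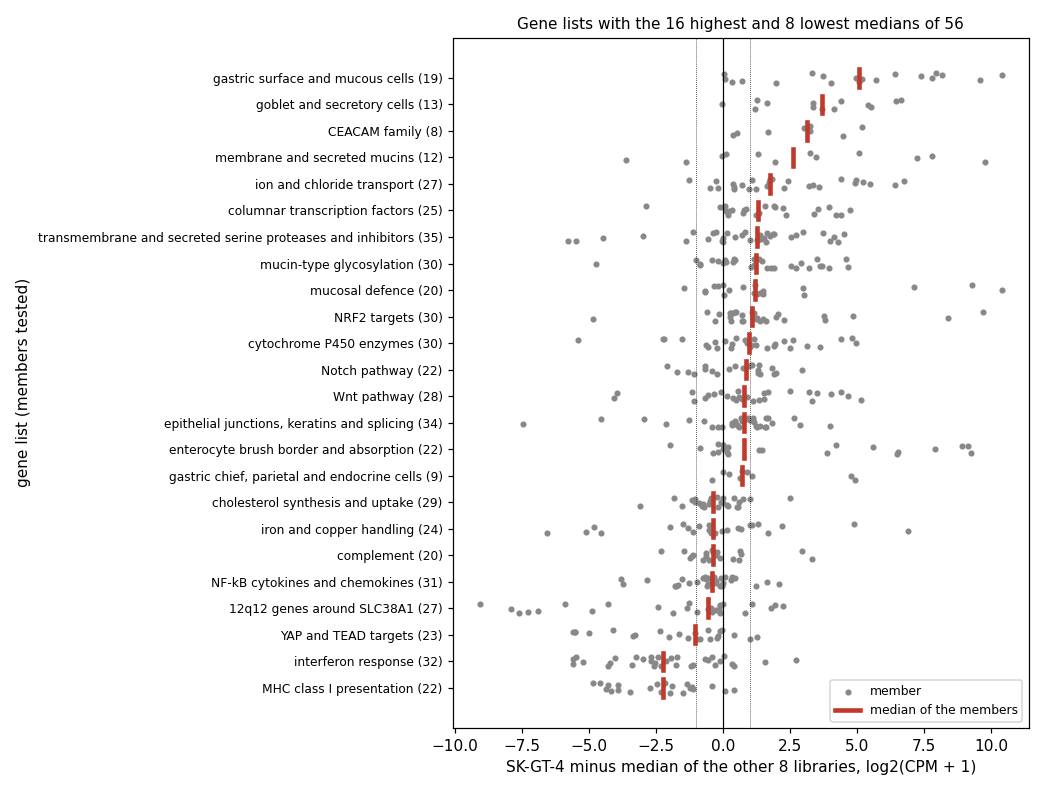
Each grey point is 1 gene, placed by its level in SK-GT-4 minus the median of the other 8 libraries in log2(CPM + 1), for the 16 gene lists with the highest and the 8 with the lowest medians of 56 lists, and red bars are list medians. Gastric surface genes (median 5.05) lie at the top and MHC class I presentation genes (median -2.25) at the bottom, with wide scatter inside most lists.

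Goblet and secretory cell genes were high as a group: 12 of 13 compared were above and 0 below, 4 were called higher, and the median was 3.69 (-1.31 to 1.39 in the other libraries). SPDEF, the transcription factor that drives goblet cell maturation, was 130.3 CPM against a median of 0.313 CPM and a highest of 14.1 CPM (FLO-1). TFF3, the intestinal trefoil peptide, was 89.8 CPM against at most 3.67 CPM. ERN2, the stress sensor IRE1-beta of mucus-producing cells, was 173 CPM against at most 9.13 CPM. All 3 were called, so by the rule they stood above the range of the other libraries. AGR2 was only just inside the call, at 5194 CPM against 1290.4 CPM in JH_EsoAd1 and 0.679 CPM in OE33. Yet MUC2, the mucin of intestinal goblet cells, had 3 counts in SK-GT-4.

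Of 12 mucin genes compared, 8 were above and 2 below, 1 was called higher and the median was 2.59 (-1.61 to 2.23 elsewhere). With all listed mucins and no filter on level it was 0.93. The called gene was MUC1, a membrane mucin, at 214 CPM against at most 47.5 CPM (OAC_5.1_C). MUC5B, a gel-forming mucin, was 1914 CPM and all but equal in OE19 at 1901 CPM, while 4 libraries were at or under 1.10 CPM. MUC13 was 247 CPM, between OE19 (336 CPM) and ESO-51 (219 CPM). MUC6, the mucin of gastric glands, was 46.3 CPM and higher in FLO-1 (74.8 CPM). Hence only MUC1 among the named mucins separated SK-GT-4 from every other library. MUC16 (1 count) and MUC4 (1.93 CPM) were the members below the median.

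Among enzymes that build mucin sugars, 18 of 30 compared were above, 2 below, 1 was called, and the median was 1.25. Elsewhere it ran from -1.28 to 0.91, and OACP4_C had 15 above. ST6GALNAC1, which caps the first mucin sugar with sialic acid to give the sialyl-Tn antigen, was 98.8 CPM against at most 19.7 CPM (ESO-26). FUT2, the secretor fucosyltransferase, was 95.2 CPM against at most 41.1 CPM, and ABO, the blood group glycosyltransferase, was 19.2 CPM against at most 6.36 CPM. GALNT5, which starts mucin glycosylation, was the main exception at 0.354 CPM, against 892 CPM in OACP4_C. In the CEACAM family of adhesion molecules, 6 of 8 were above, none was called and the median was 3.13, or 1.22 on the deposited FPKM scale. In the other libraries it ran from -1.16 to 2.62, and OE19 also had 6 of 8 above. CEACAM6 was highest in SK-GT-4 at 953 CPM (next JH_EsoAd1 at 424 CPM), whereas CEACAM5, the tumour marker CEA, was 150.0 CPM and reached 284 CPM in OE19.

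Genes of mucosal defence were split. Of 20 compared, 11 were above and 1 below, 3 were called (LYZ, REG4 and PLA2G2A), and the median was 1.17. It was 0.34 with a pseudocount of 5 and 0.02 with no filter on level. REG4 was 664 CPM against 44.3 CPM in OE19 and at most 0.149 CPM in the other 7 libraries. SLPI, an inhibitor of leukocyte proteases, was 114 CPM against at most 50.7 CPM. LCN2, the iron-binding lipocalin, was 101.9 CPM and below ESO-51 (637 CPM) and OACP4_C (515 CPM). The scavenger DMBT1, the antibody transporter PIGR and the protease inhibitor WFDC2 were near 0, with 3, 2 and 2 counts.

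Among transcription factors of columnar epithelium, 14 of 25 were above the median of the other libraries, 1 was below and 1 was called. The list median was 1.30, or 0.76 with a pseudocount of 5 and 0.75 with FPKM rescaled to equal sums. ESO-51 was close, with 13 above, 2 called and a median of 1.01. The gene called in SK-GT-4 was FOXA3, a forkhead factor of gut and liver, at 54.2 CPM against at most 11.9 CPM (ESO-51). HNF4A, a nuclear receptor that maintains gut identity, was 138.2 CPM, close to ESO-51 (167 CPM) and OE19 (123.8 CPM), whereas the remaining 6 were at or under 19.6 CPM. GATA6 was highest in SK-GT-4 at 91.5 CPM, with OE19 next at 61.2 CPM. HNF4A and GATA6 therefore had near neighbours in ESO-51 or OE19, and FOXA3 did not. The intestinal factor CDX2 was 6.85 CPM, near the median of 5.93 CPM, against 99.9 CPM in ESO-51 and 78.4 CPM in OE19, and CDX1 had 0 counts (floor 0.0965 CPM). NR5A2, a nuclear receptor of pancreas and gut, was low at 0.579 CPM.

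Intestinal absorptive genes were uneven. Of 22 compared, 11 were above and 1 below, and 2 were called (PHGR1 and MYO1A). The median of 0.77 stood well below the mean of 2.80. The list was higher in ESO-51 (17 above, 3 called, median 2.43) and OE19 (14 above, 3 called, median 1.79). In SK-GT-4 the median was 1.74 on the deposited FPKM scale and 0.19 with no filter on level. LGALS4, a gut lectin, was 1267 CPM against 1655 CPM in OE19 and 171 CPM in ESO-51, with the other 6 at or under 1.77 CPM. CDH17 was 798 CPM, level with ESO-51 (786 CPM) and OE19 (680.5 CPM), with all others under 1 CPM. VIL1, villin of the brush border, was 341 CPM against 283 CPM in ESO-51 and at most 1.96 CPM elsewhere. These 3 genes therefore grouped SK-GT-4 with ESO-51, and 2 of them also with OE19. MYO1A, the brush border myosin, was 114.5 CPM against at most 9.55 CPM. Some markers of mature enterocytes were at or near 0: FABP1 had 2 counts and SI (sucrase-isomaltase) 0 counts (floor 0.0965 CPM). GUCY2C, the guanylin receptor, had 3 counts against 132 CPM in ESO-51. Other listed genes were present, such as USH1C at 12.2 FPKM and SLC15A1 at 8.24 FPKM.

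ERBB2 lay in a short run of high genes on chromosome 17. The run held 4 neighbouring protein-coding genes, each at least 1 log2 unit above the other 8: PGAP3, ERBB2, MIEN1 and GRB7. Over the 12896 protein-coding genes placed in chromosomal order, 316 (2.45%) met that condition. ERBB2 was 18325 CPM, against 3515 CPM in ESO-51, 1387 CPM in OACP4_C and 10.4 CPM in ESO-26, a difference from the median of 6.59. Genes on either side did not follow. STARD3 was 27.8 CPM, below the lowest of the other libraries, IKZF3 was 0.418 CPM and the proteasome gene PSMD3 was 84.9 CPM against at least 135 CPM elsewhere. The high stretch was thus narrow, ending between STARD3 and PGAP3 on the left of the plotted order and after GRB7 on the right. Over the 32 genes of the wider 17q12 list, 7 were above and 2 below, with a median of -0.28.

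**Figure D3:**
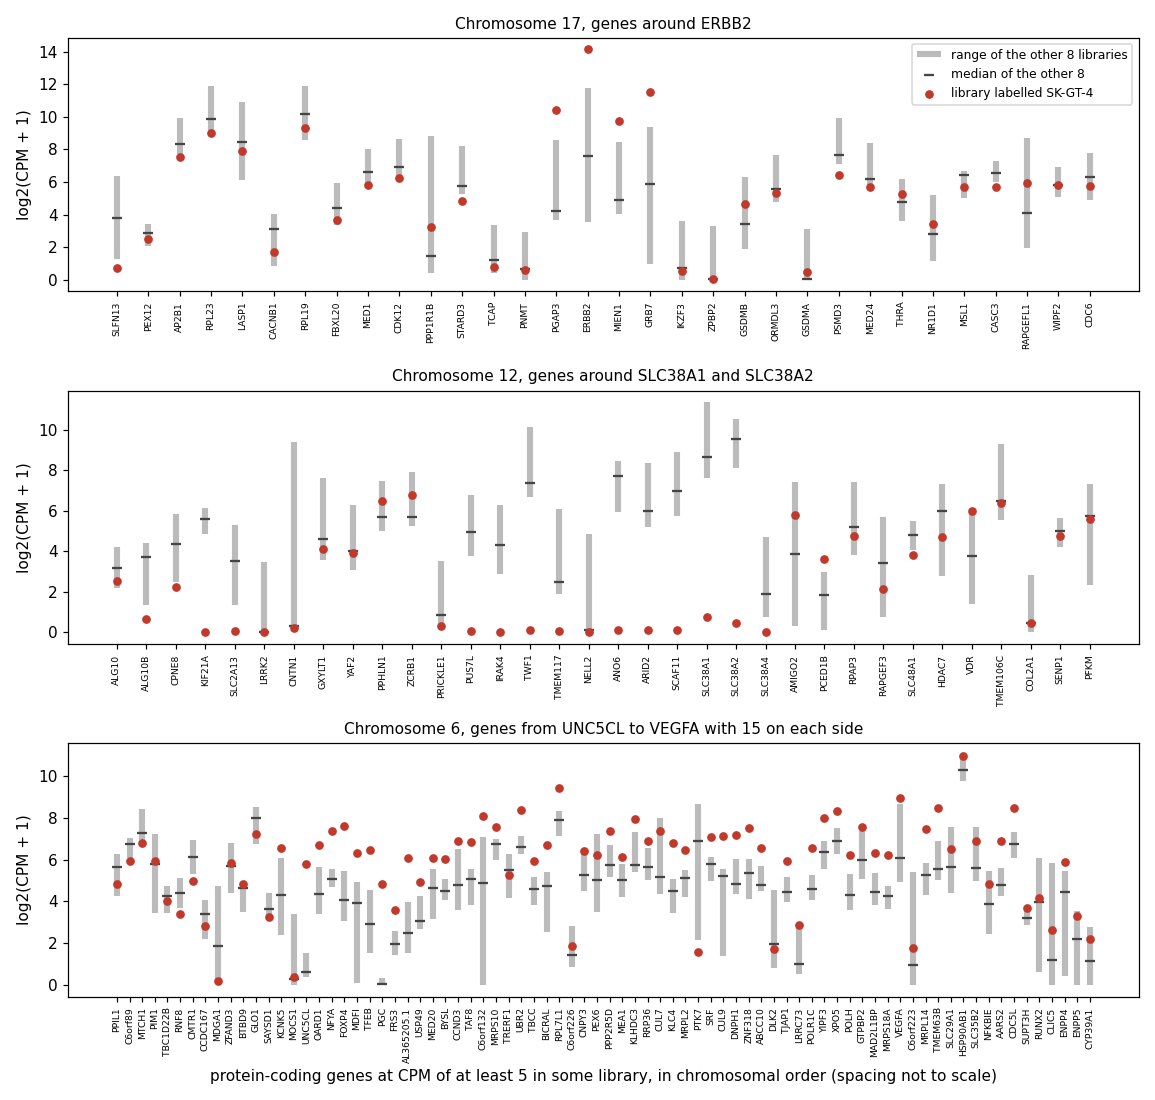
Level in log2(CPM + 1) of protein-coding genes in chromosomal order around ERBB2 (top), around SLC38A1 and SLC38A2 (middle) and from UNC5CL to VEGFA with 15 genes on each side (bottom), with SK-GT-4 in red, the range of the other 8 as a grey bar and their median as a tick. The top panel shows 4 adjacent red points above their bars, the middle panel a block of red points near 0 and the bottom panel 41 of 48 genes with SK-GT-4 highest.

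Genes of the ERBB pathway were otherwise moderate. Of 22 receptors, ligands and adaptors compared, 5 were above and 2 below, and the median was 0.06. ERBB3, the partner receptor of HER2, was 511 CPM, second to OE19 (726 CPM). ERBB4 was 18.6 CPM, the highest of 9, with ESO-26 next at 10.6 CPM. EGFR was 171.5 CPM against a median of 147.5 CPM. The ligand gene EREG was 0.932 CPM against a median of 157 CPM, and AREG was 29.03 CPM against 40.6 CPM. Feedback and output genes of the MAPK cascade had 10 of 25 above, 4 below and a median of 0.70. SPRED1, an inhibitor of RAS signalling, just missed the call at 270.4 CPM, a gap of 1.97 above OACP4_C (68.3 CPM). DUSP6, a phosphatase of ERK, was 95.9 CPM, below OACP4_C (178 CPM) and OE19 (161 CPM).

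A longer high stretch lay on chromosome 6. From UNC5CL to VEGFA, SK-GT-4 was the highest of 9 for 41 of 48 protein-coding genes, whereas it was highest for 10.7% of all protein-coding genes in order. The median difference in this stretch was 1.82 and 43 genes were at least 1 log2 unit above. Of the 15 genes before UNC5CL, 1 was highest, 1 was at least 1 above and the median was -0.47. Of the 15 genes after VEGFA, 5 were highest, 9 were at least 1 above and the median was 1.11, so the levels stayed high past VEGFA. The bounds were set after the values were seen, so these counts describe the stretch and support nothing. UNC5CL, FOXP4 and PGC were among the genes called higher. FOXP4, a forkhead repressor, was 191 CPM against at most 42.1 CPM. NFYA, the DNA-binding subunit of the CCAAT factor, was 165 CPM against at most 45.1 CPM. TFEB, a regulator of lysosome genes, was 86.2 CPM against at most 22.2 CPM. CCND3, a G1 cyclin, was 117 CPM and VEGFA, the angiogenic growth factor, 493 CPM. These genes encode proteins of different kinds. PTK7, a Wnt co-receptor inside the stretch, was an exception at 2.03 CPM, with a difference of -5.28 from the median. FOXP4 has an antisense neighbour, FOXP4-AS1, and since the strand setting of the counting is not given, reads of the pair cannot be told apart.

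Runs of exactly 3 such genes occurred at 3 more places. On chromosome 8 they were the carbonic anhydrases CA13 (98.2 CPM), CA1 (16.1 CPM) and CA3 (14.2 CPM). On chromosome 22 they were GGT1, a glutathione-cleaving enzyme with related copies nearby (118 CPM), LRRC75B and SGSM1. The last was CUL9, DNPH1 and ZNF318, inside the chromosome 6 stretch.

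The opposite pattern appeared on chromosome 12, where 8 genes were called lower in 1 block. From PUS7L to SLC38A2, 9 of 10 protein-coding genes were lowest of 9, with a median difference of -6.40. In comparison, SK-GT-4 was lowest for 10.6% of all protein-coding genes in order. The ends of this block are the first and last genes of a run already found low. Its counts and median thus describe the block and support nothing. At least 1 log2 unit below all others lay 143 of 7693 genes that could meet that condition (1.86%). SLC38A2 had 12 counts (0.386 CPM) where the other libraries ranged from 277 to 1489 CPM, and SLC38A1, another glutamine transporter, had 21 counts where they ranged from 196 to 2643 CPM. TWF1, an actin-capping protein, had 2 counts against at least 103.1 CPM. ANO6, a lipid scramblase, had 3 counts against at least 60.3 CPM. Counts of 2 and 3 put TWF1 and ANO6 at or under the floor of 0.0965 CPM, whereas SLC38A2 and SLC38A1 lay above it. ARID2, a subunit of the SWI/SNF chromatin remodeller, and the splicing-related gene SCAF11 had 2 counts each. PUS7L had 1 count and IRAK4, the kinase of Toll-like receptor signalling, 0 counts against at least 6.46 CPM.

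The genes next to the block were low too, with 7 counts for PRICKLE1 before PUS7L and 0 counts for SLC38A4 after SLC38A2, but both were also low in some other libraries. Beyond them, expression was present. ZCRB1 was 109 CPM against a median of 51.3 CPM, and AMIGO2 was 55.0 CPM against 14.3 CPM. Further upstream on the same chromosome the kinesin gene KIF21A had 0 counts, against at least 28.3 CPM elsewhere, and its neighbour SLC2A13 had 1 count against at least 1.55 CPM. LRRK2, the next gene, had 0 counts in SK-GT-4 but also in 5 other libraries. These upstream genes were singled out after their values were seen.

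SLC38A1 and SLC38A2 carry glutamine and other neutral amino acids into cells, and other amino acid transporters were read beside them. Of 33 compared, 9 were above and 5 below, 2 were called higher, 2 lower, and the median was -0.09. SLC1A5, the other main glutamine carrier, was 729 CPM, level with OE19 (702 CPM) and above a median of 218 CPM. SLC7A7, an exporter of cationic amino acids, was called higher at 176 CPM against at most 25.0 CPM (OAC_5.1_C). SLC6A19, a neutral amino acid carrier of the gut brush border, was just inside the call at 8.17 CPM against at most 1.27 CPM. The leucine exchanger SLC7A5 was 311.5 CPM against a median of 562 CPM and lay inside the range of the others. Genes of the amino acid stress response governed by ATF4 had 9 of 24 above, 3 below and a median of 0.67. In the other libraries it ran from -0.70 to 1.45, highest in OE19. STC2, a secreted glycoprotein, was the called member at 70.5 CPM against at most 13.4 CPM (OE33). The serine synthesis gene PSAT1 was highest in SK-GT-4 at 557.5 CPM (next ESO-51 at 281 CPM), while asparagine synthetase ASNS at 454 CPM was below OACP4_C at 468 CPM.

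Several enzymes that act on aldehydes and ketones were abundant. AKR1B10, an aldo-keto reductase of retinal and lipid aldehydes, was 1521 CPM against a median of 0.893 CPM and a highest of 101.2 CPM (OE19). Its close copy AKR1B15 was 75.7 CPM, and reads of the 2 genes may be split uncertainly. ALDH3A1, an aldehyde dehydrogenase, was 3513 CPM, with JH_EsoAd1 next at 1047 CPM and OE19 at 357 CPM. Over alcohol, aldehyde and retinoid genes 12 of 26 were above, 6 below, 2 were called and the median was 0.34. Of 30 genes known as targets of the oxidative stress factor NRF2, 16 were above and 1 below, with a median of 1.09 (-1.10 to 0.77 elsewhere). GPX2, a gut glutathione peroxidase, was 747 CPM against 235 CPM in ESO-51 and at most 30.2 CPM elsewhere. NQO1, a quinone reductase, was 1706 CPM, second to ESO-26 (3158 CPM). AKR1C1, which has near-identical copies, was 1222 CPM and far below ESO-26 (6288 CPM). Against the direction of the list, CBR1, a carbonyl reductase, had 0 counts while all other libraries held at least 15.8 CPM.

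Conjugation and oxidation enzymes added to this set. SULT1E1, the oestrogen sulphotransferase, was 21.1 CPM against at most 0.545 CPM, and UGT1A6, a glucuronosyltransferase sharing exons with its copies, was 135.8 CPM against 153.6 CPM in ESO-51. Sulphotransferases and glucuronosyltransferases had 7 of 17 above, 1 below and a median of 0.67. In the other libraries the median ran from -0.43 to 1.10, highest in ESO-51 with 9 above. Among cytochrome P450 genes 14 of 30 were above, 4 below, 1 was called and the median was 0.97. The called gene CYP4F3, a leukotriene hydroxylase with close copies, was 240.3 CPM against at most 40.4 CPM. CYP3A5, a drug-oxidising enzyme, was 151 CPM against at most 57.2 CPM. AHR, the receptor for aromatic hydrocarbons, was 812 CPM against at most 287 CPM. CYP24A1, which breaks down vitamin D, was by contrast 0.161 CPM against a median of 57.5 CPM, although the vitamin D receptor VDR was 63.5 CPM.

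Ion and chloride transport genes had 18 of 27 above, 1 below, 3 called and a median of 1.74, outside the -1.08 to 0.54 of the other libraries. The called genes were AQP5, the chloride transporter SLC26A9 (39.2 CPM against at most 6.39 CPM), both of which are also in the gastric list, and the sodium-proton exchanger SLC9A4 of gastric cells (21.2 CPM against at most 0.123 CPM). KCNE3, a potassium channel subunit, was 203 CPM, with ESO-51 at 115.5 CPM and the others at or under 5.74 CPM. FXYD3, a regulator of the sodium pump, was 558 CPM against at most 147.8 CPM. CFTR, the chloride channel, was 0.386 CPM. Iron and copper genes went both ways, with 7 of 24 above, 8 below and a median of -0.38. SLC40A1, the iron exporter ferroportin, was called at 265 CPM against at most 41.7 CPM (ESO-51). The iron reductase CYBRD1 had 3 counts against 4.31 to 274 CPM, and the metal-binding protein gene MT2A was 0.547 CPM against a median of 60.7 CPM.

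Genes of MHC class I presentation were low in SK-GT-4. Of 22 compared, 19 were at least 1 log2 unit below the median and 0 above, although none met the rule for a lower call. The median of -2.25 lay outside the -1.01 to 1.21 of the other libraries, in which 1 to 11 members were below. It was -1.14 on the deposited FPKM scale. B2M, the invariant light chain, was 183.5 CPM (178.8 to 188.3), against 397 to 1712 CPM with a median of 835 CPM. HLA-B, a heavy chain gene, was 18.2 CPM against 52.3 to 1371 CPM. For both, SK-GT-4 was lowest, with the caveat that alleles and related copies can change how reads map to HLA genes. TAP1, which pumps peptides into the endoplasmic reticulum, was 5.85 CPM against 19.2 to 153 CPM. The immunoproteasome gene PSMB9 was 0.257 CPM against 1.21 to 73.7 CPM, whereas PSMB8 (1.48 CPM) was not lowest, since ESO-26 held 0.577 CPM. NLRC5, the transcriptional activator of class I genes, was 3.28 CPM against a median of 23.1 CPM. The stress ligand gene MICA had 0 counts (floor 0.0965 CPM) against at least 4.51 CPM, and its copy MICB had 1 count.

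Interferon response genes were low as well, but not uniquely. Of 32 compared, 22 were below and 2 above, none was called, and the median was -2.22, inside the -3.32 to 1.84 of the other libraries, where ESO-26 was lower. The median shrank to -0.94 on the deposited FPKM scale. IFIT1, an RNA-binding effector, had 3 counts against 3.81 to 207 CPM. IFITM1, a membrane protein that blocks virus entry, had 0 counts against 0.346 to 62.3 CPM. OAS1, an RNA sensor, was an exception at 148.2 CPM, the highest of 9 and close to OACP4_C (138.0 CPM). GBP2 was 48.8 CPM against a median of 6.59 CPM. Outside this list, the immune checkpoint ligand CD274 (PD-L1) had 0 counts, against 45.4 CPM in OACP4_C and 59.1 CPM in OAC_5.1_C.

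**Figure D4:**
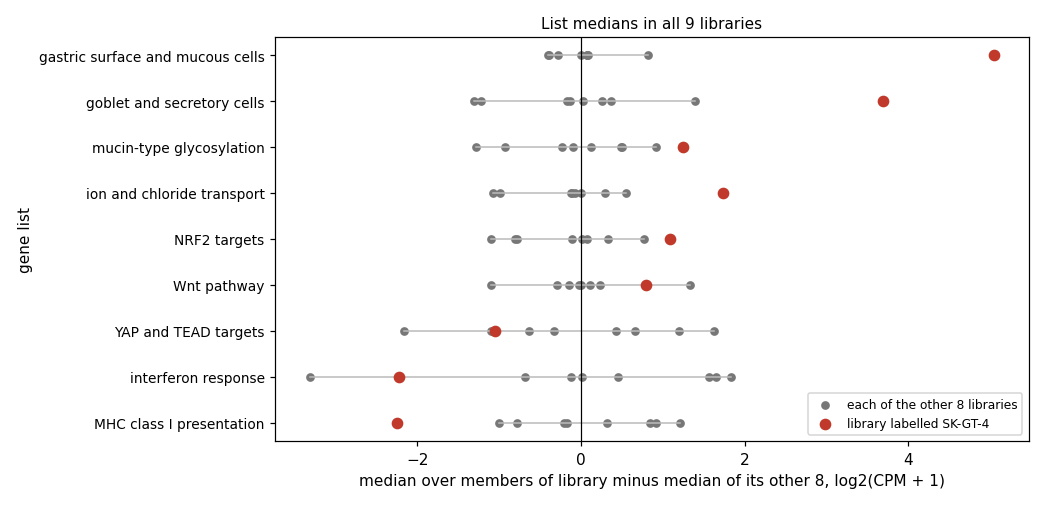
Median over the members of 9 gene lists in every library, each as the library's level minus the median of its other 8 in log2(CPM + 1), with SK-GT-4 in red and the other 8 libraries in grey. SK-GT-4 lies outside the grey range for gastric surface, goblet, glycosylation, ion transport, NRF2 and MHC class I lists, and inside it for the Wnt, YAP and TEAD, and interferon lists.

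The list of targets of the transcriptional co-activators YAP and TAZ with TEAD factors also holds YAP1, WWTR1, TEAD1 and TEAD4 themselves. It was low, with 12 of 23 members below, 2 above and 2 called lower. The median was -1.05 (-2.17 to 1.62 elsewhere), and -0.69 on the deposited FPKM scale. WWTR1, which encodes TAZ itself, was 0.386 CPM against 13.8 to 118 CPM, and it was called lower. YAP1 was 212.8 CPM against a median of 159 CPM. FJX1 was the other called member, at 0.386 CPM against at least 5.06 CPM. CCN1, a matrix protein and classic target, was 1.61 CPM against a median of 27.3 CPM.

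Mesenchymal genes were low in part. Of 33 compared, 11 were below and 3 above, with a median of -0.20. The actin-binding gene TPM2 was called lower, at 1.48 CPM against 20.4 to 271 CPM, and CNN3, calponin 3, which is not in the list, had 13 counts against at least 61.4 CPM. VIM, vimentin, had 1 count, against 1679 CPM in OE19. CAV1, caveolin, was 1.19 CPM against a median of 209.9 CPM. The cadherin CDH11 went the other way and was called higher, at 42.4 CPM against at most 7.09 CPM. Among junction and keratin genes 15 of 34 were above, 5 below and the median was 0.78 (-4.18 to 1.09 elsewhere, highest in OAC_5.1_C). CDH1, E-cadherin, was highest in SK-GT-4 at 546 CPM, with ESO-51 at 495 CPM. KRT7, a keratin of glandular epithelia, was 2.38 CPM against a median of 609 CPM and similarly low in ESO-26 and OE33. CDH3, P-cadherin, was 3.92 CPM against a median of 113.2 CPM.

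Wnt pathway genes had 13 of 28 above, 4 below and a median of 0.80, below that of ESO-51. NOTUM, a secreted enzyme that inactivates Wnt ligands, was called at 87.4 CPM against at most 18.6 CPM (ESO-51). AXIN2, a scaffold of the beta-catenin destruction complex, was 110.5 CPM against at most 34.9 CPM. LGR5, a stem cell receptor, was 10.6 CPM against at most 2.11 CPM. All 3 were highest in SK-GT-4, with ESO-51 next. The ligand antagonist DKK1 was low, at 1.83 CPM against a median of 72.9 CPM. For the Notch pathway, 10 of 22 were above, 4 below and the median was 0.85, with JAG1 at 278 CPM and NOTCH2 at 80.5 CPM against a median of 344 CPM. In the TGF-beta and BMP list 11 of 34 were above, 7 below and the median was -0.32. SMAD7, its intracellular inhibitor, was 55.4 CPM against at most 15.3 CPM, and TGFB2 was 0.161 CPM against a median of 56.6 CPM.

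Some cancer-testis genes, normally silent outside germ cells, were high, but the list summed to more in OE33 and ESO-26. OE33 had 10 above, 5 called and a median of 2.65, and the summed level was 1799 CPM in OE33, 1332 CPM in ESO-26 and 518 CPM in SK-GT-4. In SK-GT-4, of 33 listed genes 18 were compared, 7 were above and 0 below, 3 were called and the median was 0.02. CTAG2 was 92.6 CPM against at most 2 counts, and CTAG1B, which encodes NY-ESO-1 and has an identical copy, was 34.9 CPM against at most 0.123 CPM. MAGEA3 was 124.3 CPM, with OE33 at 69.2 CPM and JH_EsoAd1 at 50.3 CPM, and MAGEA12 was called at 73.8 CPM. MAGEA members share long stretches of sequence, so the split of reads between them is uncertain.

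Proliferation genes showed little difference. Of 28 mitosis genes 0 were above and 1 below, with a median of -0.19. That gene was cyclin B1, CCNB1, at 55.1 CPM against a median of 163 CPM. DNA replication genes gave 0 of 31 above, 1 below and a median of 0.02. SWI/SNF subunits other than ARID2 were mixed, with 3 of 25 above, 3 below and a median of -0.06. ARID1A was 155 CPM, the highest of 9, next to ESO-51 at 119.5 CPM.

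Lower genes were also found outside these lists. NNT, the mitochondrial transhydrogenase that makes NADPH, had 4 counts against 84.0 to 441 CPM, and its antisense neighbour NNT-AS1 had 3. OXCT1, the enzyme that uses ketone bodies, had 3 counts against at least 18.2 CPM. Both lie on chromosome 5, but genes between them were present, such as HMGCS1 at 76.8 CPM and PAIP1 at 61.7 CPM. SCRN1 was 1.16 CPM against at least 49.7 CPM, PLBD1 was 1.54 CPM against at least 67.6 CPM, and the protease gene BLMH had 1 count against at least 18.9 CPM. Expressed genes were taken as those at 5 CPM or more in each of the other 8 libraries. Their median difference was -0.60 on chromosome 5, below the -0.21 to 0.34 of the other libraries. It was also outside the range of those libraries on chromosomes 8 (0.28, others up to 0.20), 9 (0.44, others up to 0.38) and 16 (-0.31, others from -0.27). SK-GT-4 itself had no such minimum, so the comparison leans toward low values in SK-GT-4.

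Calls near the threshold were close to uncalled neighbours. Just inside on the high side lay AGR2 (gap 2.01), SLC6A19 (2.02) and CAPN8 (2.04), and just outside SPRED1 (1.97), RAP1GAP (1.95) and PTGR1 (1.94). On the low side RUSC2 (-2.04), ACOT2 (-2.11) and MR1 (-2.13) were just inside, and BAG2 (-1.95), DYNC2H1 (-1.93) and PECR (-1.90) just outside. No break in the values separates the called from the uncalled genes there.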

How the data were processed

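RNA-seq was available for 9 cell lines, with 1 library each. The deposited counts per gene are whole numbers for all 9 lines in 1 table, and STAR 2.6.1d, FastQC 0.11.7, R 3.6.1 and the build GRCh37 are named per the submitters' processing notes. The FPKM values of each line were deposited by the authors in a file of their own, and on inspection equal the count divided by gene length and by that file's total. The counter, annotation and strand setting are not given in the sources used here. A row without a gene name, 0.00485% of the SK-GT-4 counts, was left out.

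Counts were scaled by TMM in edgeR 4.0.16 (R 4.3.3) over 17163 genes at 1 CPM or more in at least 2 libraries, and levels were compared as log2(CPM + 1) in Python 3.11.15 with numpy 2.4.6, pandas 2.3.3 and scipy 1.17.1. Figures were drawn with matplotlib 3.10.9. Intervals are exact Poisson intervals at 95%, and the floor of a gene at 0 is 3 counts in that library. With 1 library per line no model or p-value was computed. Alternatives covered the pseudocount, the scaling (library size, DESeq2 1.42.0 size factors, upper quartile, no mitochondrial genes), FPKM, the low-value filter, the gap, the list summary and members, and leaving out each other library.

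Named genes follow a rule: the 15 largest gaps upward and 12 downward among protein-coding genes, and the 3 noncoding genes with the largest gap. In each list the rule took the called members and up to 5 with the largest difference. It also took the 17q12 and 12q12 genes, runs of neighbours, the 10 highest FPKM values outside mitochondrial genes, and the genes beside the threshold. Other genes were named after their values were seen. The members and lists were chosen with earlier results of these data known. Genes linked to sex, and some genes that the rule names, are not reported here.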

Additional observations from a re-analysis of the deposited data

Results flagged for a closer look

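The file of the line SK-GT-4 holds many counts on gene identifiers that the table of all lines does not list. They took 37.2% of the counts in that file, against 25.8% to 77.3% in the files of the other lines. A single identifier without a name took 22.3% of the file, a further one 8.74%, and the noncoding RNA RF00100 1.55%. These counts enter no CPM value given above, but they enter the total by which the deposited FPKM values were divided. The share in SK-GT-4 was thus inside the range of the other lines, and its part in the FPKM differences was not tested.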

How the results depend on the processing

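No paired analysis was possible because each line has 1 library and no result comes from a test. With a pseudocount of 5, 73 genes were higher and 25 lower, the number of genes over 2-fold above the median of the other 8 was 1478, and the number of genes over 2-fold below the median of the other 8 was 993. On the deposited FPKM scale these counts were 60, 3, 1513 and 470, and with FPKM rescaled to equal sums 51, 5, 1283 and 537. A minimum of 20 CPM left 27 lower genes. A gap of 1 gave 355 higher and 147 lower genes, and a gap of 3 gave 60 and 29. Leaving out 1 other library gave 137 to 192 higher genes (192 without ESO-51) and 59 to 79 lower genes (79 without OE19). The cause of these shifts was not tested, apart from the pseudocount, the gap, the minimum and the number of libraries. These change the counts by construction, and a larger pseudocount shrinks every log2 difference. Of the 131 higher and 56 lower genes, 39 were called under every setting tried. None of the list medians at or beyond 1 changed sign, and 5 of those 13 stayed at or beyond 1 throughout. With FPKM the interferon median was -0.94 and the YAP and TEAD median -0.69. Other list medians moved by over 1.5 times as well. Over the alternatives they ran from 0.07 to 1.29 for chief and parietal genes, 0.13 to 1.52 for sulphotransferases and glucuronosyltransferases, 0.34 to 1.27 for P450 enzymes, 0.15 to 0.89 for alcohol and aldehyde genes, 0.42 to 1.07 for Wnt, 0.39 to 1.13 for Notch, -0.49 to -0.04 for TGF-beta and BMP, and -0.52 to -0.03 for iron and copper genes. The MAPK median ran from 0.19 (without ESO-26, and the same without OE33) to 1.03 (without OE19). TMM over all genes was added after seeing the data and moved none of the 4 counts by over 1.5 times. Depth limits statements on genes at 0 to 3 counts, which may be present below the floor.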
